A study of Mus musculus with 29 samples.

Results

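The genes described here build cholesterol, control its synthesis or move it inside the cell. They were chosen as a list of 31 gene symbols, which was matched to the probe annotation of a bead array. A gene entered where at least 1 of its probes was detected, with a detection p below 0.01, on 2 or more of 29 arrays. This left 21 genes, measured by 28 probes, among 8271 measured genes. No probe carried the symbol of 6 listed genes, Acat2, Mvk, Fdft1, Sc4mol, Npc1 and Soat1, and Sc4mol is an older symbol of Msmo1, which was measured. The probes of 4 more, Abca1, Ggps1, Sc5d and Tm7sf2, were not detected on 2 arrays. The genes measured were 5 of 8 for the mevalonate steps, 2 of 3 for the steps from squalene to lanosterol, 6 of 9 for the later sterol steps, 5 of 5 regulators and 3 of 6 genes of transport and storage. The list holds no lipoprotein receptor, so uptake is represented by genes of transport within the cell.

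Total RNA came from keratinocytes, the epithelial cells of the epidermis, isolated from the tail skin of C57BL/6 mice. All cultures were of the line labelled c-FostetON, in which doxycycline (Dox) induces c-Fos, a subunit of the transcription factor AP-1. The promoter that drives the transgene, its activator and the number of animals are not given in the sources used here. Cells were grown at 32 °C in KC-SFM medium from 24 h after plating, without Dox or with Dox at 1 µg per ml in one label field and 1 µg per litre in another, and no animal ages are given. The labels give 2, 2, 3, 3 and 4 arrays of untreated cultures and 3, 3, 3, 2 and 4 arrays of Dox cultures at 6, 12, 24, 48 and 72 h. At 72 h, 2 arrays of each treatment carry the letter C and were averaged, which left 27 replicates. Nothing states that replicates are separate animals or cultures, so the p-values measure the spread between these samples only. Every culture carries the transgene, so Dox itself and c-Fos cannot be told apart.

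Cholesterol is made from acetyl-CoA by way of mevalonate and isoprenoid diphosphates, which are joined to squalene, closed into the ring system of lanosterol and trimmed step by step to cholesterol. The genes of these enzymes share a control: when sterols in the endoplasmic reticulum are low, SCAP carries the SREBP transcription factors to the Golgi, where they are cut and released to the nucleus, and when sterols are high the INSIG proteins hold SCAP back. Keratinocytes make much of their own cholesterol, which is one of the main lipids of the skin barrier.

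The median signal of an array lay between 54.5 and 74.5, with 33.4 to 37.8% of the probes detected. Of 9 keratinocyte markers with a probe 8 were detected on every array, 0 of 6 fibroblast and 0 of 5 immune markers were detected on 2 arrays, and 4 of 5 melanocyte markers were detected on 2 or more, with a summed signal of 301 to 418 on untreated and 297.4 to 423.2 on Dox arrays. The probe for Fos went against the labels: every array labelled Dox read below every untreated array of its time. The log2 difference was -0.39 at 6 h (adjusted p = 0.106 by limma) and -0.32 at 12 h (adjusted p = 0.453). It was -0.76, -0.83 and -0.78 at 24, 48 and 72 h, where the highest adjusted p was 0.00551. The sources used here do not say whether that probe reads the transgene, and every direction below follows the labels. Both untreated 6 h arrays also stood apart in the difference between 2 probes of Actb, which encodes beta-actin. That difference was 3.95 and 4.59 on these arrays and -4.03, -3.44 and -3.84 on the Dox 6 h arrays. It was 1.63 and 1.10 on untreated and -1.75, -2.59 and -1.80 on Dox arrays at 12 h, and from 24 h on it ran from -4.78 to -1.14 on all arrays but untreated 24 h replicate 1, at 0.91. Mean effects are therefore given with and without the 6 h difference, and with the Actb difference as a covariate where that ends a call. At 6, 12 and 72 h the Actb difference did not overlap between treatments. At 72 h it ran from -2.41 to -1.71 on untreated and from -3.71 to -3.09 on Dox arrays. Fits with this covariate cannot tell it from Dox at those times. The mean over the 5 times includes them. Calls kept, lost or reversed at those times or in that mean are therefore descriptions only.

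Promoter windows of RefSeq, build GRCm38.p6, each with 250 bases before and 50 after an annotated start, were found for 17 of the 21 genes, 25 windows in all. Shown are those of the 4 genes that pass the test in the mean Dox effect over 12 to 72 h, so that a reader can see what their starts share and where they differ. Capitals mark matches on either strand to the SRE-like motif TCACNCCAC, a form of the SREBP site, to the AP-1 motif TGANTCA and to the CCAAT box CCAAT, and no matches of different motifs overlapped.
Hmgcs1, chr13:119690101-119690400, plus strand: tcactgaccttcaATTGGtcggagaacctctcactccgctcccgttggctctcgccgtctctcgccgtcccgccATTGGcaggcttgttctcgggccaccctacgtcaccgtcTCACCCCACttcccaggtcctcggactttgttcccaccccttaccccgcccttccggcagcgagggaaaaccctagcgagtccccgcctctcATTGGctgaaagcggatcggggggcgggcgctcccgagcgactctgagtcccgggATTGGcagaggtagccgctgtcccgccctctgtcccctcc
Msmo1, chr8:64733529-64733828, minus strand: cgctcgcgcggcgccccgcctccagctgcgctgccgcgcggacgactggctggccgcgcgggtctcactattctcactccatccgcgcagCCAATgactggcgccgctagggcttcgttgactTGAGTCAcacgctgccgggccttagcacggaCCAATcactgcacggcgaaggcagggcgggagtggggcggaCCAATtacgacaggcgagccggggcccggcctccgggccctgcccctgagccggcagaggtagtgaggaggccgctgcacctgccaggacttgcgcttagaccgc
Nsdhl, chrX:72918271-72918570, plus strand: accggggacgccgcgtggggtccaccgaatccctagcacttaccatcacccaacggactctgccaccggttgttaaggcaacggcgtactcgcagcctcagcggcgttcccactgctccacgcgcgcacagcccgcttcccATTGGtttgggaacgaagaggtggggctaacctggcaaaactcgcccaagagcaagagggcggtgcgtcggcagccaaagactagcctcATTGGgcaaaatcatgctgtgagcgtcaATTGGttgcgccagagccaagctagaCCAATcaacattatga
Dhcr7, chr7:143829964-143830263, plus strand, 1 of 3 windows of this gene: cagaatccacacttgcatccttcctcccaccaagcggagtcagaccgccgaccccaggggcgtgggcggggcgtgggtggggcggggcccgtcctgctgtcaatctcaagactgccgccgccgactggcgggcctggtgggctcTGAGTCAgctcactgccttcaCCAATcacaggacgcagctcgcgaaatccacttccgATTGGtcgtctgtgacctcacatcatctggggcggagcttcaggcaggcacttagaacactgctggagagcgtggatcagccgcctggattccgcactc

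All 4 printed windows hold CCAAT boxes, 4 in Hmgcs1, 3 in Msmo1, 4 in Nsdhl and 2 in Dhcr7. For Dhcr7 the window with the most SRE-like and AP-1 matches was printed. Its other windows hold no CCAAT box and no AP-1 match, so what Dhcr7 shares here depends on that choice. The CCAAT box lay in 17 of the 25 windows, or 68%, against 37.4% of 32851 windows of all annotated genes, measured here or not. The GC box GGGCGG lay in 20, or 80%, against 35.7%. The E-box CACGTG lay in 5 windows of 4 genes, or 20%, against 7.15%, and overlapping windows of Scap hold the same match. The SRE-like motif was found in 1 of the 25 windows, that of Hmgcs1, or 4% against 1.24% of all windows. The AP-1 motif lay in 2 windows, the ones printed for Msmo1 and Dhcr7, or 8% against 7.81%. Matches of letters are a description of the windows and show no binding.

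Each comparison below asks whether Dox cultures differed from untreated cultures of the same age. Values are log2 signals after background correction and quantile normalization, a gene with several probes is counted by the one with the highest mean, and a gene is called where limma's test gives an adjusted p under 0.05 over all probes. At 6 h, 6 of the 21 genes were called, 3 higher with Dox (Cyp51, Nsdhl and Ebp) and 3 lower (Dhcr7, Lss and Hmgcs1). These are 28.6% of the genes, against 24.3% of all genes measured, and by direction 14.3 and 14.3% against 10.1% higher and 14.2% lower. The count is near that background. At 12 h Nsdhl alone was called, higher, or 4.76% against 1.38% of all genes, with 0.931% of all genes higher and 0.447% lower. At 24 h it was again Nsdhl alone, against 2.89% of all genes, 1.43% higher and 1.46% lower. Msmo1 and Nsdhl were called at 48 h, both higher, or 9.52% against 2.58% of all genes, 1.39% higher and 1.18% lower. At 72 h 0 of 21 genes were called by limma's test, against 6.25% of all genes, 2.91% higher and 3.34% lower, and 4 had an unadjusted p under 0.05, Hmgcs1 (0.0113), Mvd (0.00819), Nsdhl (0.027) and Msmo1 (0.0338). Without background correction 2 genes, Hmgcs1 and Mvd, were called at 72 h, while 289 of all genes were higher and 327 lower.

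The median difference, Dox minus untreated, of the 21 genes was -0.04, 0.04, 0.02, -0.07 and -0.01 from 6 to 72 h in order, beside -0.08, -0.01, -0.01, -0.01 and -0.01 over all genes. Over the 5 times together 5 genes were called, Cyp51, Msmo1 and Nsdhl higher and Dhcr7 and Hmgcs1 lower, which is 23.8% against 19.7% of all genes, 8.6% higher and 11.1% lower. In the mean over 12 to 72 h 4 of these were called and Cyp51 was not, or 19% against 10.9%, with 5.2% of all genes higher and 5.72% lower. A Dox effect that differed between times was called for 2 genes, Cyp51 and Nsdhl, or 9.52% against 14.6%. With the Actb covariate 2 genes, Cyp51 and Nsdhl, were called at 6 h, and 1, Nsdhl, over the 5 times together.

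The directions depended on the scaling of the arrays. With arrays scaled to the median, 2 members were higher at 6 h, Cyp51 and Nsdhl, and 5 lower, Dhcr7, Hmgcs1, Hsd17b7, Lss and Stard4, while 434 of all 8271 genes were higher and 2219 lower. At 24 h 0 were higher and 3 lower, Cyp51, Dhcr7 and Lss, while 50 of all genes were higher and 1686 lower. At 12 h 0 were called and at 48 h 1, Nsdhl, higher. Over the 5 times 1 was higher, Nsdhl, and 4 lower, Dhcr7, Hmgcs1, Lss and Stard4, while 313 of all genes were higher and 1536 lower. This scaling moved the median of all genes by -0.13 at 6 h and -0.22 at 24 h.

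**Figure D1:**
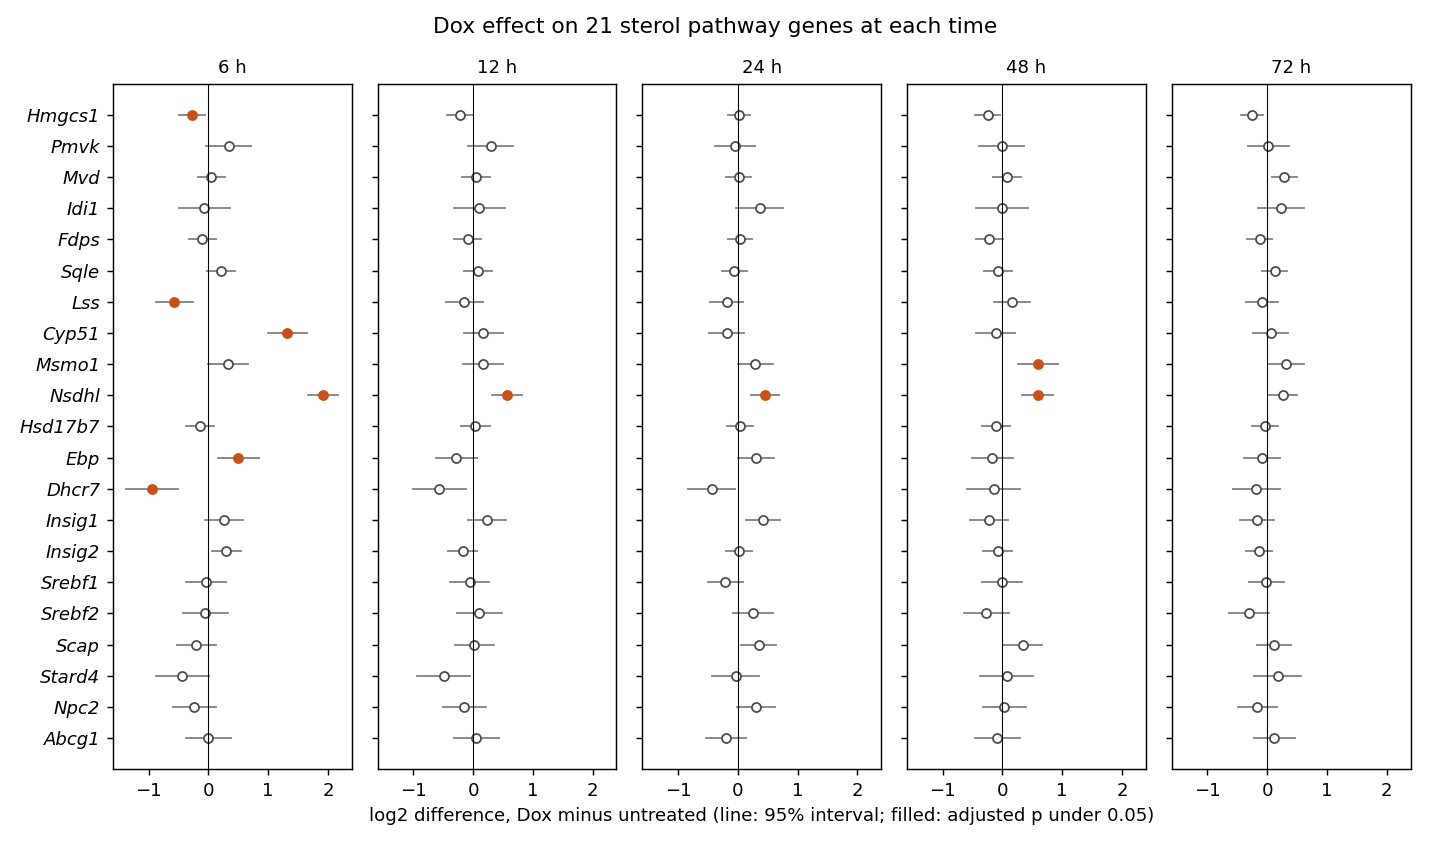
Log2 difference, Dox minus untreated, of the 21 genes at each time, in the order of the pathway. Points are estimates of the limma fit, lines their 95% intervals, and filled points mark an adjusted p under 0.05. Nsdhl is filled from 6 to 48 h, Cyp51 at 6 h only, and the open points lie between -0.57 and 0.42.

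Of the mevalonate steps, Hmgcs1 was the 1 gene of 5 that was called in a Dox comparison. It encodes the cytosolic HMG-CoA synthase, which condenses acetyl-CoA units ahead of mevalonate. Hmgcs1 read 12.70 and 12.9997 at 6 h, 12.85 and 12.81 by 12 h, 12.92, 12.76 and 12.81 after 24 h, 12.87, 12.90 and 12.76 by 48 h, and 13.11, 13.11, 13.03 and 12.94 at 72 h on the untreated arrays. With Dox it read 12.65, 12.58 and 12.49 at 6 h, 12.60, 12.64 and 12.58 by 12 h, 12.83, 12.83 and 12.90 after 24 h, 12.67 and 12.51 by 48 h, and 12.83, 12.76, 12.81 and 12.92 at 72 h. All Dox arrays lay below all untreated arrays at 6, 12, 48 and 72 h, and at 24 h the treatments overlapped. The difference was -0.28 at 6 h (SE 0.10, adjusted p = 0.0496 by limma) and -0.23, 0.02, -0.25 and -0.25 at the later times in order, and its mean over the 5 times was -0.20 (SE 0.04, adjusted p = 0.00205), or 1.15-fold lower with Dox. Without 6 h the mean was -0.18 (adjusted p = 0.0198), and with the Actb covariate the call over 5 times was lost (adjusted p = 0.261). At 6 h the call was lost in the authors' values, with that covariate, with the letter in the sample names or array set as a block, and without untreated replicate 2, Dox replicate 2 or Dox replicate 3, when the difference ranged from -0.43 to -0.13 over all replicates left out.

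The other genes of the mevalonate steps did not pass the test for Dox at any time, though Mvd was called at 72 h without background correction and Pmvk at 6 h without untreated replicate 2. Mvd, the decarboxylase that makes isopentenyl diphosphate, read 8.40 and 8.29 at 6 h, 8.58 and 8.54 by 12 h, 8.99, 8.86 and 8.95 after 24 h, 8.98, 8.97 and 9.10 by 48 h, and 9.08, 9.15, 9.44 and 9.18 at 72 h without Dox. On the Dox arrays Mvd read 8.28, 8.58 and 8.32 at 6 h, 8.56, 8.67 and 8.60 by 12 h, 9.10, 8.93 and 8.82 after 24 h, 9.002 and 9.18 by 48 h, and 9.44, 9.51, 9.47 and 9.44 at 72 h. The treatments overlapped from 6 to 48 h. At 72 h the highest untreated array, of letter C and averaged with its pair for the test, tied with the lowest Dox array at 9.44. The Dox difference was 0.29 at 72 h (SE 0.10, adjusted p = 0.104) and between 0.02 and 0.08 before. Fdps makes farnesyl diphosphate, where the sterol and other isoprenoid branches part. Fdps read 12.06 and 12.03 at 6 h, 11.86 and 12.01 by 12 h, 11.88, 11.94 and 11.97 after 24 h, 12.13, 12.22 and 12.18 by 48 h, and 12.45, 12.60, 12.42 and 12.51 at 72 h on untreated arrays. Dox arrays gave Fdps values of 12.03, 11.95 and 11.87 at 6 h, 12.09, 11.68 and 11.76 by 12 h, 11.95, 11.97 and 11.99 after 24 h, 12.04 and 11.87 by 48 h, and 12.45, 12.39, 12.32 and 12.27 at 72 h. Dox arrays lay below untreated arrays at 6 and 48 h and overlapped them otherwise, and the differences ran from -0.22 to 0.04. Pmvk, the phosphomevalonate kinase, had Dox differences from -0.05 to 0.34. Idi1, the isopentenyl diphosphate isomerase, had differences from -0.07 to 0.36 and was detected on 23 of 29 arrays.

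The steps from squalene to lanosterol were measured by Sqle and Lss. Lss encodes lanosterol synthase, which closes squalene epoxide into the sterol rings. Lss read 8.15 and 8.36 at 6 h, 7.87 and 7.72 by 12 h, 8.21, 8.12 and 8.14 after 24 h, 8.22, 8.48 and 8.53 by 48 h, and 8.77, 8.68, 9.10 and 9.09 at 72 h without Dox. With Dox Lss read 7.75, 7.78 and 7.51 at 6 h, 7.62, 7.75 and 7.57 by 12 h, 8.15, 8.11 and 7.65 after 24 h, 8.48 and 8.65 by 48 h, and 8.60, 8.90, 8.80 and 8.77 at 72 h. At 6 h all 3 Dox arrays lay below both untreated arrays, and at every later time the treatments overlapped. The difference at 6 h was -0.57 (SE 0.15, adjusted p = 0.00567 by limma), or 1.49-fold lower with Dox. Later differences were -0.15, -0.19, 0.16 and -0.09 in order of time, and the test that the effect differed between times gave an adjusted p of 0.126. The 6 h call was lost in the authors' values, with the Actb covariate and without untreated replicate 2.

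Sqle, the squalene epoxidase, has 2 probes that gave different answers. The counted probe read 10.29 and 10.60 at 6 h, 10.97 and 10.82 by 12 h, 11.23, 11.24 and 11.01 after 24 h, 11.16, 11.15 and 11.29 by 48 h, and 11.02, 11.03, 10.87 and 10.89 at 72 h on untreated arrays. With Dox the same probe read 10.67, 10.74 and 10.56 at 6 h, 10.88, 11.04 and 11.02 by 12 h, 11.03, 11.12 and 11.15 after 24 h, 11.10 and 11.16 by 48 h, and 11.20, 10.9998, 11.25 and 10.95 at 72 h. These values overlapped between treatments at all 5 times, and the differences ran from -0.07 to 0.22, with an adjusted p of 0.171 at 6 h. In the authors' values this probe was called higher with Dox at 12 h, while 831 of all genes were higher and 1 lower. There it was called lower at 24 h, while 415 of all genes were higher and 712 lower, and its effect was called as differing between times. The second probe read 5.68 and 5.64 at 6 h, 7.35 and 8.47 by 12 h, 9.01, 9.21 and 9.04 after 24 h, 9.21, 9.21 and 8.87 by 48 h, and 9.38, 9.30, 8.96 and 8.98 at 72 h on untreated arrays. On Dox arrays it read 8.32, 8.53 and 8.56 at 6 h, 8.64, 9.27 and 9.04 by 12 h, 9.30, 8.94 and 9.10 after 24 h, 9.37 and 9.005 by 48 h, and 9.60, 9.67, 9.57 and 9.48 at 72 h. This probe was 7.02-fold higher with Dox at 6 h (difference 2.81, SE 0.22, adjusted p = 8.19e-10) and 2.10-fold higher at 12 h (difference 1.07, adjusted p = 0.0106), and differed by 0.03 at 24 h. Over 12 to 72 h its mean was 0.39 higher with Dox (adjusted p = 0.0129). With the mean of all probes of a gene, Sqle was called at 6 and 12 h. The difference between the probes was 4.61 to 4.96 on the untreated 6 h arrays and 1.33 to 3.62 on the 27 others. It followed the Actb probe difference across arrays with an r of 0.85 (29 arrays), and of 0.61 on the 27 arrays without untreated 6 h. Arrays of 1 group share their culture time and treatment, so this r is a description. The part of that difference in the Sqle result was not tested, and no single size for Sqle at 6 h can be given from these probes.

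**Figure D2:**
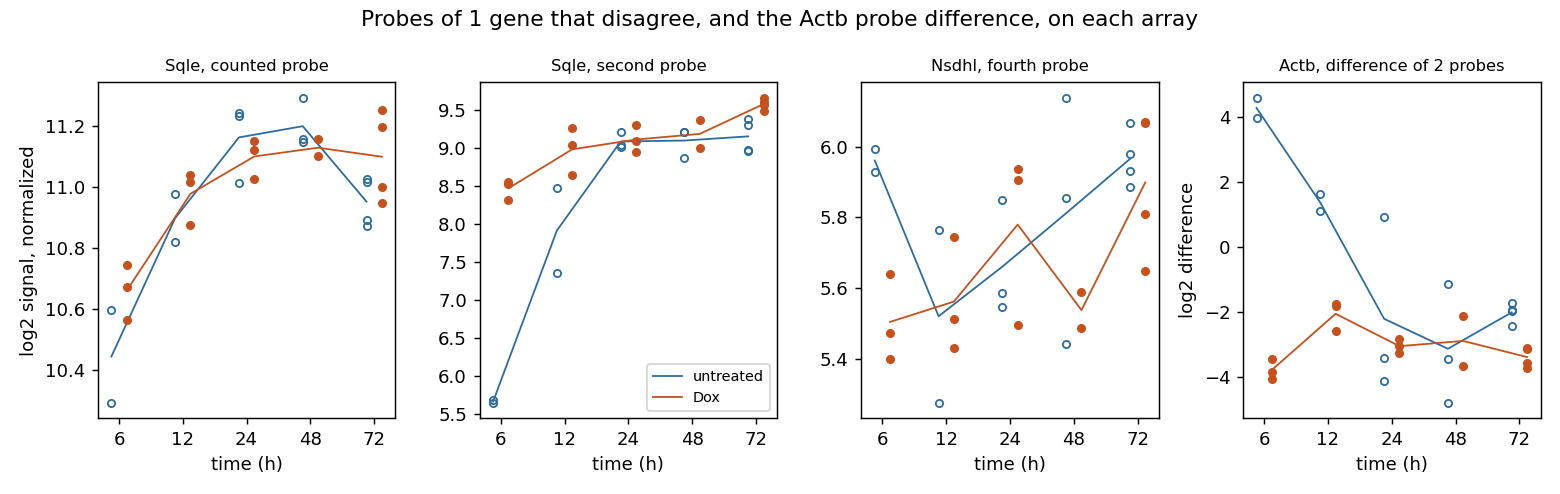
Log2 signal of the counted and the second probe of Sqle and of the fourth probe of Nsdhl, and the difference between 2 probes of Actb, on each array by time in hours. Points are arrays, open for untreated and filled for Dox, and lines join the means over arrays. The second Sqle probe is low on the 2 untreated 6 h arrays, where the Actb difference is high.

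Of the later sterol steps 6 genes were measured. At 6 h 3 were higher and 1 lower, beside 10.1% of all genes higher and 14.2% lower. At 12 and 24 h 1 was higher, Nsdhl each time, beside 0.931 and 1.43% of all genes higher. At 48 h 2 were higher, Nsdhl again and Msmo1, beside 1.39%. Cyp51 encodes lanosterol demethylase, the first enzyme after lanosterol. Cyp51 read 8.27 and 8.60 at 6 h, 9.51 and 9.74 by 12 h, 10.24, 10.12 and 9.93 after 24 h, 9.99, 10.08 and 10.28 by 48 h, and 10.02, 9.93, 10.26 and 10.003 at 72 h on untreated arrays. With Dox Cyp51 read 9.59, 9.98 and 9.71 at 6 h, 9.48, 9.85 and 10.04 by 12 h, 10.08, 9.90 and 9.76 after 24 h, 9.96 and 10.04 by 48 h, and 10.01, 10.28, 9.95 and 9.97 at 72 h. At 6 h every Dox array lay above both untreated arrays, and at each later time the treatments overlapped. The difference at 6 h was 1.32 (SE 0.16, adjusted p = 6.303e-07 by limma), or 2.50-fold higher with Dox. Untreated cultures then rose by 1.67 from 6 to 24 h (adjusted p = 9.245e-09), while Dox cultures differed by 0.15 (adjusted p = 0.503). The differences later were 0.17, -0.19, -0.11 and 0.06, and the mean was 0.25 over the 5 times (adjusted p = 0.0102) and -0.02 over 12 to 72 h (adjusted p = 0.917). The mean over 5 times lost its call with arrays scaled to the median, in the authors' values and with the Actb covariate. The 6 h call was kept under all 10 alternatives, with differences of 1.03 to 1.74, and in all 5 fits that left out a replicate.

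Msmo1 and Nsdhl act in the removal of the methyl groups at carbon 4 of the sterol, Msmo1 as the oxidase and Nsdhl as the dehydrogenase. Msmo1 read 9.41 and 9.40 at 6 h, 9.48 and 9.67 by 12 h, 9.60, 9.85 and 9.68 after 24 h, 9.47, 10.02 and 9.82 by 48 h, and 9.81, 9.74, 9.85 and 10.18 at 72 h on untreated arrays. With Dox Msmo1 read 9.90, 9.68 and 9.62 at 6 h, 9.77, 9.79 and 9.65 by 12 h, 9.88, 10.09 and 10.05 after 24 h, 10.15 and 10.58 by 48 h, and 10.04, 9.99, 10.65 and 10.35 at 72 h. Dox arrays lay above untreated arrays without overlap at 6, 24 and 48 h, and overlapped them at 12 and 72 h. The differences up to 24 h were 0.32, 0.16 and 0.30 in order of time, that at 48 h was 0.59 (SE 0.16, adjusted p = 0.0458 by limma), and that at 72 h 0.32. Its mean was 0.34 (SE 0.07, adjusted p = 0.000754), or 1.27-fold higher with Dox, and without 6 h also 0.34 (adjusted p = 0.0031). The test that the effect differed between times gave an adjusted p of 0.623. The mean lost its call with arrays scaled to the median and with the Actb covariate, where the adjusted p was 0.0598 and 0.0893, and the 48 h call was lost under 5 of 10 alternatives and without untreated replicate 1, untreated replicate 3 or Dox replicate 2.

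Nsdhl had the largest Dox effect among the counted probes. Nsdhl read 5.35 and 5.46 at 6 h, 6.58 and 6.90 by 12 h, 7.08, 7.23 and 7.25 after 24 h, 7.08, 6.87 and 6.77 by 48 h, and 7.55, 7.54, 7.41 and 7.29 at 72 h on untreated arrays. With Dox Nsdhl read 7.29, 7.40 and 7.29 at 6 h, 7.26, 7.33 and 7.33 by 12 h, 7.66, 7.61 and 7.66 after 24 h, 7.54 and 7.46 by 48 h, and 7.61, 8.01, 7.42 and 7.81 at 72 h. The Dox arrays lay above all untreated arrays at 6, 12, 24 and 48 h, and the treatments overlapped at 72 h. The difference was 1.92 at 6 h (SE 0.13, adjusted p = 1.184e-10 by limma), or 3.78-fold higher with Dox. From 12 to 48 h it was 0.57 (adjusted p = 0.0172), 0.46 (adjusted p = 0.0252) and 0.59 (adjusted p = 0.0064), and by 72 h 0.26 (adjusted p = 0.22). Its mean was 0.76 over the 5 times (adjusted p = 8.99e-11) and 0.47 over 12 to 72 h (SE 0.06, adjusted p = 2.951e-06).

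Nsdhl is measured by 3 further probes. On the second the Dox difference was 1.79 at 6 h (adjusted p = 1.113e-09) and 0.22 over 12 to 72 h (adjusted p = 0.0331), though it was detected on 1 of the 2 untreated 6 h arrays. On the third it was 1.18 at 6 h (adjusted p = 5.613e-06) and 0.27 over 12 to 72 h (adjusted p = 0.0241). The fourth probe ran the other way at 6 h, at -0.46 (adjusted p = 0.0581), and its mean over 12 to 72 h was -0.05. It read 5.93 and 5.99 on the untreated and 5.47, 5.64 and 5.40 on the Dox 6 h arrays. The counted probe minus the fourth was -0.57 to -0.53 on the untreated 6 h arrays and 0.91 to 2.36 on the 27 others, and followed the Actb probe difference with an r of -0.77 over 29 arrays and of -0.37 over those 27. Against the second probe this r was -0.11, and against the third -0.29, over 29 arrays. The part of the Actb difference in the Nsdhl result was not tested. With the covariate the counted probe kept its 6 h call, though at 6 h that covariate cannot be told apart from Dox. None of the 3 passed at a single time from 12 to 72 h, where their lowest adjusted p was 0.0637. With the mean of all 4 probes the difference was 1.11 at 6 h (adjusted p = 9.661e-08) and 0.41 over the 5 times (adjusted p = 9.803e-07), and the calls at 12, 24 and 48 h were lost. The counted probe lost its call at 12 h without untreated replicate 1, Dox replicate 2 or Dox replicate 3, at 24 h without any 1 of the 6 replicates, and at 48 h without Dox replicate 1 or 2. With array set as a block its calls at 12 and 24 h were lost, as they were with arrays scaled to the median. The Actb covariate also ended the call at 12 h, and the authors' values those at 24 and 48 h.

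Dhcr7 and Ebp act at the end of the pathway. Dhcr7 encodes the reductase that turns 7-dehydrocholesterol into cholesterol. Dhcr7 read 7.83 and 7.38 at 6 h, 7.38 and 7.24 by 12 h, 7.43, 6.70 and 6.82 after 24 h, 6.498, 6.95 and 7.32 by 48 h, and 6.45, 6.83, 6.83 and 6.82 at 72 h on untreated arrays. With Dox Dhcr7 read 6.88, 6.54 and 6.55 at 6 h, 6.76, 6.68 and 6.78 by 12 h, 6.45, 6.75 and 6.45 after 24 h, 6.56 and 6.99 by 48 h, and 6.57, 6.29, 6.73 and 6.68 at 72 h. Dox arrays lay below untreated arrays without overlap at 6 and 12 h and overlapped them later. The difference was -0.95 at 6 h (SE 0.21, adjusted p = 0.00174 by limma), or 1.93-fold lower with Dox, and -0.57, -0.43, -0.15 and -0.18 at the times after. Its mean over the 5 times was -0.45 (SE 0.09, adjusted p = 0.000704), and over 12 to 72 h -0.33 (adjusted p = 0.0352). The highest untreated reading at 24 h, 7.43, came from replicate 1, the array whose Actb difference was 0.91. With the Actb covariate the 6 h difference turned to 0.33 (adjusted p = 0.683) and the mean to -0.03 (adjusted p = 0.95), and without untreated replicate 1 the 6 h call was lost.

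Ebp encodes the sterol isomerase that moves the double bond of the ring. Ebp read 6.77 and 7.05 at 6 h, 7.15 and 7.80 by 12 h, 7.20, 7.34 and 7.14 after 24 h, 7.45, 7.67 and 7.60 by 48 h, and 7.63, 7.62, 7.59 and 7.82 at 72 h on untreated arrays. With Dox Ebp read 7.31, 7.50 and 7.42 at 6 h, 7.16, 7.13 and 7.29 by 12 h, 7.37, 7.87 and 7.36 after 24 h, 7.19 and 7.62 by 48 h, and 7.60, 7.65, 7.47 and 7.45 at 72 h. At 6 and 24 h the Dox arrays lay above all untreated arrays, and at 12, 48 and 72 h they overlapped. The difference was 0.50 at 6 h (SE 0.16, adjusted p = 0.0276 by limma) and then -0.28, 0.30, -0.17 and -0.08 in order of time. The 6 h call was lost under 4 of 10 alternatives and without untreated replicate 1, Dox replicate 2 or Dox replicate 3. Hsd17b7, the ketoreductase of the same sterol branch, had Dox differences from -0.14 to 0.04.

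**Figure D3:**
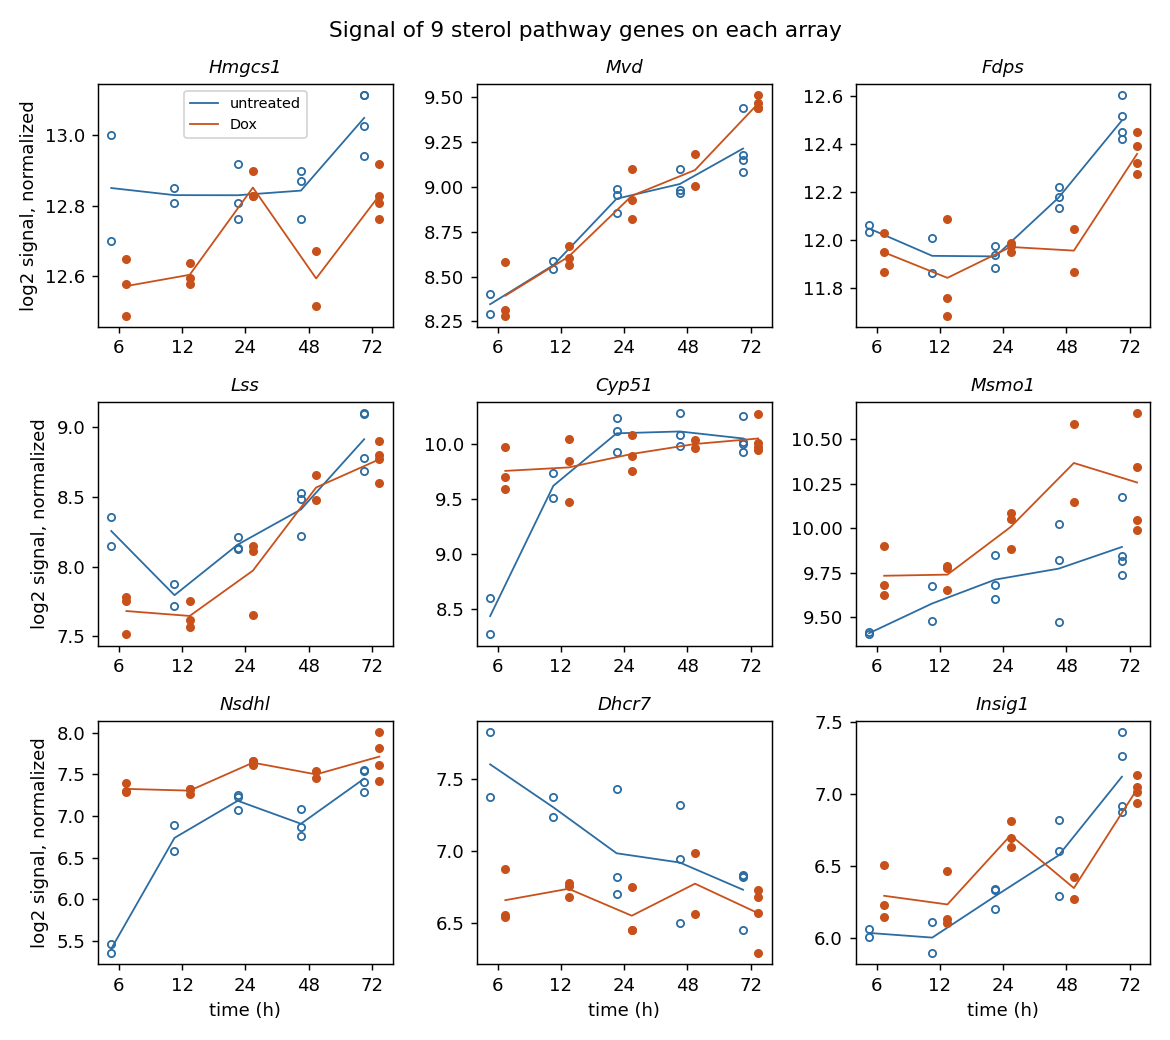
Log2 signal of 9 genes on each array by time in hours, counted probes only. Points are arrays, open for untreated and filled for Dox, and lines join the means over arrays. Nsdhl and Msmo1 lie higher with Dox, Dhcr7 and Hmgcs1 lower, Cyp51 differs at 6 h, and Fdps and Lss lie higher at 72 h than at 24 h in both treatments.

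None of the 5 regulators passed the test for Dox at any time on its counted probe, with medians between -0.14 and 0.25. Srebf2, which encodes the SREBP form that drives cholesterol genes, read 7.59 and 7.21 at 6 h, 7.52 and 7.90 by 12 h, 7.58, 7.27 and 7.26 after 24 h, 7.50, 7.54 and 7.46 by 48 h, and 7.50, 7.96, 7.90 and 7.72 at 72 h on untreated arrays. With Dox Srebf2 read 7.43, 7.33 and 7.29 at 6 h, 7.997, 8.07 and 7.39 by 12 h, 7.79, 7.77 and 7.32 after 24 h, 7.10 and 7.36 by 48 h, and 7.50, 7.43, 7.47 and 7.38 at 72 h. Dox arrays lay below untreated arrays at 48 h and overlapped them at the other times. Its differences ran from -0.31 at 72 h to 0.25 at 24 h, and the lowest adjusted p was 0.377. Scap read 6.33 and 6.15 at 6 h, 6.11 and 5.94 by 12 h, 5.97, 5.82 and 5.91 after 24 h, 6.15, 6.22 and 5.77 by 48 h, and 6.02, 6.32, 6.09 and 6.22 at 72 h on untreated arrays. With Dox Scap read 5.95, 5.91 and 6.25 at 6 h, 6.36, 5.95 and 5.82 by 12 h, 6.13, 6.42 and 6.20 after 24 h, 6.37 and 6.40 by 48 h, and 6.12, 6.46, 6.11 and 6.40 at 72 h. Dox arrays lay above untreated arrays at 24 and 48 h, by 0.35 (adjusted p = 0.207) and 0.34 (adjusted p = 0.37), and overlapped them at 6, 12 and 72 h. Srebf1 was detected on 3 of 29 arrays and differed by -0.21 to -0.01. Insig2 differed by 0.30 at 6 h on the counted probe (adjusted p = 0.0558) and by 0.50 on the second (adjusted p = 0.0276). At 6 h Insig2 was called under 4 other settings, which were no background correction, no detection filter, detection on all arrays of a group and the mean of all probes, and also without Dox replicate 2.

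Insig1, itself a target of the SREBPs that closes the feedback, was followed by 3 probes. The counted probe read 6.06 and 6.01 at 6 h, 6.11 and 5.89 by 12 h, 6.20, 6.33 and 6.34 after 24 h, 6.82, 6.60 and 6.29 by 48 h, and 7.43, 7.26, 6.87 and 6.91 at 72 h on untreated arrays. With Dox it read 6.14, 6.23 and 6.504 at 6 h, 6.13, 6.47 and 6.10 by 12 h, 6.69, 6.63 and 6.81 after 24 h, 6.42 and 6.27 by 48 h, and 7.05, 6.94, 7.02 and 7.13 at 72 h. At 6 and 24 h the Dox arrays lay above the untreated arrays, by 0.26 (adjusted p = 0.24) and 0.42 (SE 0.14, adjusted p = 0.106), and at 72 h the treatments overlapped, with a difference of -0.18 (adjusted p = 0.617). The test that the effect differed between times gave an adjusted p of 0.0754 on this probe, 0.408 on the second and 0.0375 on the third. On the third probe the difference was 0.48 at 24 h (adjusted p = 0.14) and -0.55 at 72 h (adjusted p = 0.059).

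Of transport and storage, 3 genes were measured and none passed the test for Dox. Stard4, a carrier of sterols between membranes, differed by -0.44 at 6 h (adjusted p = 0.14) and -0.50 at 12 h (adjusted p = 0.31), where all Dox arrays lay below the untreated ones, and by 0.18 at 72 h. Npc2, which hands cholesterol out of the lysosome, read 6.97 and 7.27 at 6 h, 6.79 and 7.08 by 12 h, 7.04, 6.87 and 6.91 after 24 h, 7.42, 7.22 and 7.03 by 48 h, and 7.34, 7.11, 7.38 and 7.30 at 72 h on untreated arrays. With Dox Npc2 read 6.76, 7.02 and 6.86 at 6 h, 6.81, 6.80 and 6.74 by 12 h, 6.88, 7.70 and 7.15 after 24 h, 7.13 and 7.37 by 48 h, and 7.01, 6.95, 7.35 and 7.33 at 72 h. Its treatments overlapped at all 5 times. Abcg1, a cholesterol exporter, was detected on 5 of 29 arrays and differed by -0.20 to 0.12.

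The comparison of 72 h with 24 h within each treatment asks how the pathway changed as the cultures aged. In untreated cultures 4 genes rose, Insig1, Lss, Fdps and Ebp, and none fell, or 19% against 18.6% of all genes, while 8.97% of all genes rose and 9.66% fell. In Dox cultures 3 rose, Lss, Mvd and Fdps, or 14.3% against 14.8% of all genes, while 7.33% of all genes rose and 7.47% fell. With rises and falls counted together, these shares were near the background. By direction, 19 and 14.3% of the members rose, against 8.97 and 7.33% of all genes, and none fell. These are 4 and 3 genes of 21, and a difference from the background by direction was not tested. The direction also moved with the scaling. Among all called genes 48.2 and 49.5% rose, and 62.7 and 92.2% with arrays scaled to the median. The 7 calls summed over the treatments count Lss and Fdps once in each. The median change of the 21 genes was 0.14 without Dox and 0.07 with Dox, beside -0.01 and -0.003 over all genes.

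Lss rose by 0.69 (SE 0.13, adjusted p = 0.000532 by limma) without and by 0.79 (adjusted p = 0.000145) with Dox. Fdps rose by 0.58 (SE 0.10, adjusted p = 0.000167) and by 0.41 (adjusted p = 0.00603). For both genes the 4 arrays at 72 h lay above the 3 at 24 h in either treatment. Mvd rose by 0.52 with Dox (SE 0.10, adjusted p = 0.000685), and its change without Dox was 0.25 (adjusted p = 0.0923). Insig1 rose by 0.90 without Dox (SE 0.14, adjusted p = 3.875e-05), and its other probes by 0.78 (adjusted p = 0.00216) and 0.62 (adjusted p = 0.0126). In Dox cultures Insig1 changed by 0.31 (adjusted p = 0.151), 0.18 and -0.41 on the same probes, none of which passed, and the difference between the treatments in this change was not tested by itself. Ebp rose by 0.43 without Dox (adjusted p = 0.0477), a call that was lost when any of the 6 replicates was left out.

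Srebf2 changed by 0.38 without (adjusted p = 0.114) and by -0.17 with Dox (adjusted p = 0.542), and Npc2 by 0.32 (adjusted p = 0.169) and -0.15 (adjusted p = 0.601). Scap changed by 0.27 (adjusted p = 0.214) and 0.03 (adjusted p = 0.925). The arrays at 72 h form a set of their own in the authors' values, so culture time and array set cannot be told apart here. The calls of Lss, Fdps, Mvd and Insig1 held under all 9 alternatives run and in all 6 fits that left out a replicate.

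**Figure D4:**
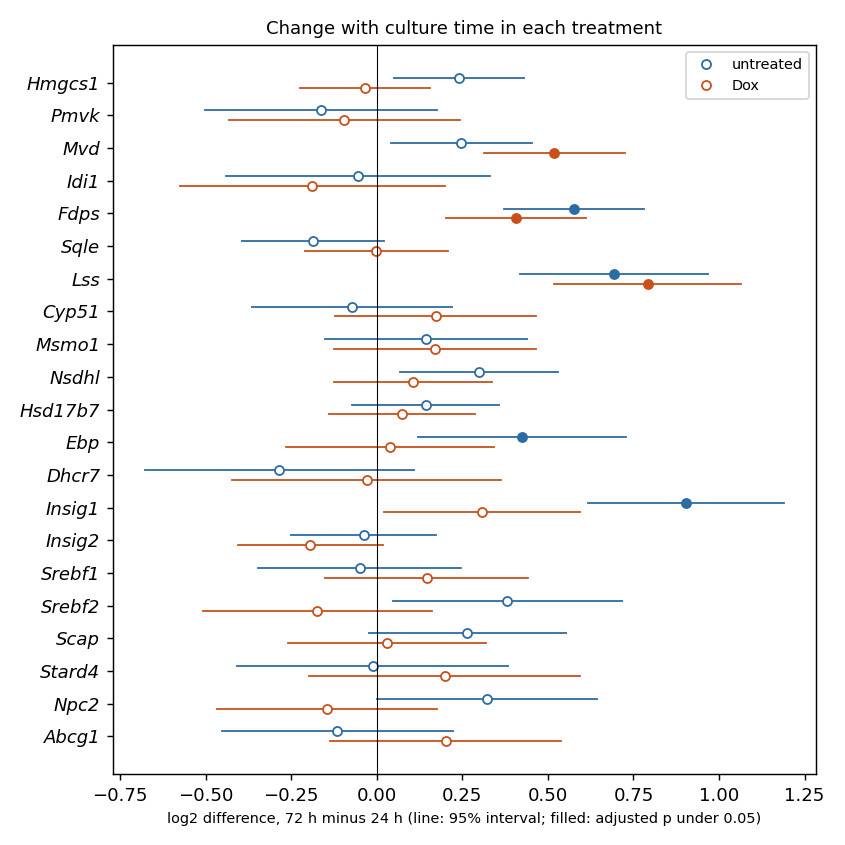
Log2 difference, 72 h minus 24 h, of the 21 genes in untreated and in Dox cultures. Points are estimates of the limma fit, lines their 95% intervals, and filled points mark an adjusted p under 0.05. Lss and Fdps rise in both treatments, Insig1 and Ebp are filled for untreated and Mvd for Dox cultures.

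From 6 to 24 h, 6 genes were called in each treatment, of which 2, Mvd and Sqle, were called in both. In untreated cultures Cyp51, Mvd, Nsdhl, Pmvk and Sqle rose and Dhcr7 fell, which is 28.6% against 33.4% of all genes, 13.7% rising and 19.6% falling. In Dox cultures Hmgcs1, Hsd17b7, Idi1, Insig1, Mvd and Sqle rose and none fell, or 28.6% against 17.8%, 8.32% rising and 9.5% falling. The median change was 0.12 and 0.28, beside -0.06 and 0.01 over all genes. Nsdhl rose by 1.78 without Dox (adjusted p = 1.281e-10) and its change with Dox was 0.31 (adjusted p = 0.0552). Mvd rose by 0.59 and 0.56, and Sqle by 0.72 and 0.44 on the counted probe. These changes share the untreated 6 h arrays with the 6 h comparison above and are no separate evidence of it. With array set as a block 3 genes were called in untreated and 0 in Dox cultures, while over all 8271 genes 311 rose and 261 fell in untreated and 7 rose and 24 fell in Dox cultures. In the authors' values 15 and 18 members were called, all rising, while over all genes 4448 rose and 113 fell in untreated and 6347 rose and 100 fell in Dox cultures. Those larger counts thus came with calls on most genes measured. Dhcr7 fell by 0.62 in untreated cultures (adjusted p = 0.0262), which turned to 0.04 in the authors' values and 0.41 with the Actb covariate. Its call was also lost with arrays scaled to the median, without a detection filter, with array set as a block, and without untreated replicate 1 of 6 h or 2 or 3 of 24 h. Without Dox replicate 2 or 3 of 6 h, or 2 or 3 of 24 h, 2 to 3 genes were called in Dox cultures.

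Genes next to the pathway were counted from lists of related function. Of 12 genes that process SREBP or take part in its turnover 8 were measured, 2 were higher with Dox at 6 h, Sec23a and Fbxw7, the latter named after its values were seen, beside 10.1% of all genes higher at that time, and 0 were called from 12 to 72 h at a single time. Over the 5 times 1, Sec23a, was higher and 1, Faf2, lower, beside 8.6% of all genes higher and 11.1% lower. Over 12 to 72 h Sec23a alone was called, higher, beside 5.2% of all genes higher. Sec23a, part of the coat that carries cargo out of the endoplasmic reticulum, was not detected on either untreated 6 h array and was on all 3 Dox arrays. Over 12 to 72 h it was higher with Dox by 0.31 (SE 0.08, adjusted p = 0.0158 by limma). Of 17 genes of fatty acid synthesis 14 were measured, and over the 5 times 0 were higher and 3 lower with Dox, beside 8.6% of all genes higher and 11.1% lower. Over 12 to 72 h 1, Acss2, was higher and 3 lower, beside 5.2% and 5.72% of all genes, and at 6 h 1, Elovl5, was higher and 3 lower, beside 10.1% and 14.2%. Acss2 and Elovl5 are named after their values were seen. Fads1, a fatty acid desaturase, was lower with Dox, with differences of -0.76 at 48 h (adjusted p = 0.00059) and -0.91 at 72 h (SE 0.12, adjusted p = 5.255e-06), and rose from 24 to 72 h by 1.05 without and 0.45 with Dox. Mid1ip1, a binding partner of acetyl-CoA carboxylase, was lower with Dox, with a mean difference of -0.54 over the 5 times (SE 0.07, adjusted p = 8.128e-06) and -0.53 without 6 h.

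Of 9 lipoprotein receptors and lysosomal genes 3 were measured, and none passed for Dox at any time or in the means. None of 6 measured genes of LXR and sterol sensing, of 11 listed, passed at a single time. Apoe, an LXR target, was the 1 called over 12 to 72 h, lower by a difference of -0.26 (adjusted p = 0.0217), beside 5.72% of all genes lower. Of 13 genes that use isoprenoids 9 were measured, and 1 was lower at 6 h and at 12 h, beside 14.2% and 0.447% of all genes lower. Icmt, which methylates prenylated proteins, was lower with Dox at 6 and 12 h, at differences of -0.77 (adjusted p = 0.00172) and -0.68 (adjusted p = 0.043), and its mean without 6 h was -0.23 (adjusted p = 0.0781). Of 10 genes of lipid trafficking 7 were measured, and 1, beside 3.34% of all genes, was lower at 72 h. This was Stard5, a sterol carrier, at a difference of -0.37 (adjusted p = 0.0436).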

How the data were processed

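RNA was read on Illumina bead arrays of 25697 probes. The intensity values were deposited by the authors without normalization, per the file headers. A detection p-value beside each signal was deposited in the same table. The authors' second table holds log2 values, used as an alternative, and how they were normalized was not given in the sources read here. In that table the arrays were grouped here into 4 sets (6, 8, 7 and 8 arrays) by single linkage of the quantiles of their values. Dox comparisons at 12 and 24 h span more than 1 set, those at 6, 48 and 72 h lie within 1, and all comparisons between times span sets.

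Signals were normalized with neqc of limma 3.58.1 (R 4.3.3), with an offset of 16. Kept were the 11794 probes detected (p below 0.01) on 2 or more arrays, and a gene was counted by its probe with the highest mean. A limma fit of 10 group means over 27 replicates had 17 residual degrees of freedom, and Benjamini-Hochberg ran over all kept probes of a contrast. The number of arrays limits the precision. Gene symbols are those of the platform annotation, which can be old.

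The members and lists were chosen with earlier results of these data known. Sample values are given for members called in a Dox contrast or the mean, and for 6 more with the smallest adjusted p in 72 h against 24 h, and those of Sqle were added after its probes were seen to differ. On simulated arrays, 91, 92, 95, 94 and 95% of changes of 1 on the log2 scale were recovered at 6, 12, 24, 48 and 72 h, and 39, 37, 42, 35 and 48% of changes of 0.5. Of the calls on the simulated arrays, 9.72, 4.44, 5.52, 7.19 and 6.54% were false at these times in order. This false share lay above the threshold used for the adjusted p at every time but 12 h. It was highest at 6 h. The simulation changed 200 of 11794 probes at each time, whereas 24.3% of all genes were called at 6 h in the data. Its false shares therefore do not carry over to the calls on the real arrays. Calls close to the threshold may still be less certain than their adjusted p states. Alternatives covered background, scaling, the authors' values, the detection filter, probe choice, the letter C arrays, blocks and each replicate left out. The Actb covariate was added after seeing the data.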

Additional observations from a re-analysis of the deposited data

Results flagged for a closer look

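The Dox effect on Cyp51 differed between times, with an adjusted p of 8.155e-05 in limma's F test of the 12 to 72 h effects against that at 6 h. It was 1.32 on the log2 scale at 6 h and lay between -0.19 and 0.17 later. For Nsdhl the same test gave an adjusted p of 1.366e-06, with an effect of 1.92 at 6 h and of 0.26 to 0.59 later. Both untreated 6 h arrays, on which each of these effects rests, also had the highest Actb probe differences, 3.95 and 4.59. With that difference as a covariate the 6 h effects were 1.74 for Cyp51 (adjusted p = 0.00421) and 1.498 for Nsdhl (adjusted p = 0.00157). The Actb difference did not overlap between treatments at 6 h, so these fits cannot tell it from Dox.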

How the results depend on the processing

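Of 338 repeats of 34 results on single genes under other settings 280 kept direction and side of the threshold, 54 lost the call and 4 reversed, and of 294 repeats that left out a replicate 243 kept both, 51 lost the call and 0 reversed. The reversals were the mean effect on Cyp51 without 6 h (-0.0196), Dhcr7 at 6 h with the Actb covariate (0.33) and the change of Dhcr7 from 6 to 24 h without Dox in the authors' values (0.0422) and with that covariate (0.41). Among counts of genes called, no background correction gave 2 at 72 h and 7 for untreated 72 h against 24 h. Over all genes it gave 289 higher and 327 lower at 72 h, and 803 rising and 871 falling for that change. Scaling arrays to the median gave 0 at 12 h, 3 at 24 h, 1 at 48 h, 4 for effects differing between times and 6 for Dox 72 h against 24 h. In that last comparison 1979 of all genes rose and 168 fell. The authors' values gave 3 at 6 h, 2 at 12 h, 0 at 48 h, 15 and 8 for untreated 24 h against 6 h and 72 h against 24 h, and 18 and 11 for the same with Dox. For 72 h against 24 h in those values, 1534 of all genes rose and 247 fell in untreated cultures. With Dox 2343 rose and 241 fell. No detection filter and separate letter C arrays gave 1 at 48 h. The mean of all probes gave 0 at 24 h, 1 at 48 h and 5 for effects differing between times. An unchanged count could hide a changed gene. Sqle took the place of Nsdhl at 12 h with the mean of all probes. In the authors' values Sqle, lower, took the place of Nsdhl, higher, at 24 h. Array set as a block gave 0 at 12 h, 0 at 24 h, 3 for untreated and 0 for Dox 24 h against 6 h, and could not be fitted for 72 h against 24 h. The Actb covariate gave 2 at 6 h, 0 at 12 h, 1 at 48 h and 1 for the mean. The cause was not tested.

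Leaving out a replicate gave 4 to 6 genes at 6 h, 0 to 1 at 12 h, 0 to 0 at 24 h, 0 to 2 at 48 h, 0 to 0 at 72 h, 5 to 6 for the mean, 2 to 3 for effects differing between times, 4 to 7 and 3 to 3 for the untreated and 2 to 5 and 3 to 3 for the Dox changes with time. Where a group was left with 1 sample, that sample is assumed to vary like the other groups. The letters do not pair samples: 1 of 12 pairs of samples with 1 letter had a correlation of deviations over 0.1, and the range was -0.05 to 0.15. A replicate block on the letter gave 5, 1, 1, 2 and 0 genes at 6, 12, 24, 48 and 72 h, 5 for the mean, 3 for effects differing between times, 6 and 4 for the untreated and 4 and 3 for the Dox changes with time, and ended the calls of Hmgcs1 at 6 h and of Hsd17b7 and Idi1 from 6 to 24 h with Dox.

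Scaling to the median moved the median of all genes by -0.13 at 6 h, -0.22 at 24 h, 0.13 for untreated 24 h against 6 h and 0.22 for Dox 72 h against 24 h, and the authors' values by 0.12 at 12 h, 0.24 for untreated and 0.19 for Dox 24 h against 6 h. Among all called genes 41.5, 67.5, 49.4, 54.0 and 46.6% were higher with Dox at 6, 12, 24, 48 and 72 h and 43.7% in the mean. Median scaling gave 16.4, 82.8, 2.88, 69.7, 35.0 and 16.9%, and the authors' values 53.2, 99.9, 36.8, 43.3, 42.1 and 62.8%. For the changes with time, untreated 24 h against 6 h and 72 h against 24 h and the same with Dox, 41.1, 48.2, 46.7 and 49.5% became 68.8, 62.7, 67.6 and 92.2% under median scaling and 97.5, 86.1, 98.4 and 90.7% in the authors' values. Over all genes the authors' values called 532 at 6 h, 832 at 12 h and 30 at 48 h in place of 2011, 114 and 213, median scaling 1736 at 24 h in place of 239, and the Actb covariate 168 at 6 h, 1 at 12 h and 256 for the mean in place of 1626.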

Other observations

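The arrays of letter C at 72 h, which were averaged within each treatment, allow a look at how far 2 arrays of 1 letter lie apart. Over the 21 genes the median size of their difference was 0.09 on the log2 scale without Dox and 0.11 with Dox. The largest differences were 0.33 for Msmo1 without Dox and 0.48 for Pmvk with Dox. Entering these arrays separately left 1 gene called at 48 h.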
